A study of Mus musculus with 16 samples.

Results

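The comparison described here set whole brain of naive male mice labelled TNF knockout against whole brain of naive male C57BL/6 mice, all 8 weeks old. It used 8 of the 16 arrays of the series, 4 for each genotype, chosen by their genotype and surgery labels alone. The other 8 arrays were from mice of the same 2 genotypes killed 24 h after permanent middle cerebral artery occlusion (pMCAO), an experimental stroke. They entered the model to share its estimate of the spread, and counted in the choice of a probe set for each gene. They are compared with the naive arrays at the end. Neither the allele, the extent of the deletion nor the background strain of the knockout is given in the labels used here, nor is it said that the C57BL/6 mice were littermates. Each array carried RNA from 1 whole brain sample, and nothing states how the samples map to animals, so the p-values measure the spread between these samples. Because whole brain mixes all cell types, fewer cells of a type and less RNA per cell cannot be told apart.

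Tumour necrosis factor (TNF) is a cytokine made in the brain mainly by microglia. It is made as a membrane protein, is shed by the protease ADAM17, and binds the receptors TNFR1 and TNFR2, whose adaptors activate the transcription factor NF-κB and, under some conditions, cell death. In the uninjured brain it is known for its part in scaling the strength of excitatory synapses.

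Expression was measured on Affymetrix Mouse Gene 1.0 ST arrays, whose probes cover the exons of each gene, and the values below are the deposited log2 probe set summaries. A gene was represented by the probe set that named it alone and had the highest mean over the 16 arrays, which gave 19938 genes. The array medians lay between 6.01 and 6.05. Pearson's r over all probe sets was 0.9935 to 0.9956 between the naive arrays labelled TNF knockout, 0.991 to 0.9943 between the naive C57BL/6 arrays, and 0.9911 to 0.9945 between arrays of different genotype. The submitters' sample names carried the prefix KL76 for naive arrays 1 to 3 and KL82 for naive array 4 of the knockout label, and KL42 for every C57BL/6 array, so prefix and genotype cannot be told apart. One array stood apart. C57BL/6 naive array 1 was high in transcripts of the cerebellum: Gabra6, a GABA receptor subunit of cerebellar granule cells, read 3.93, 4.08, 4.24 and 4.42 on the knockout-labelled arrays, against 7.99, 4.48, 4.28 and 4.0 on the C57BL/6 arrays. Cbln3 likewise read 4.83 to 5.55 on the knockout-labelled arrays, against 7.45 on C57BL/6 array 1 and 5.14 to 5.30 on the other C57BL/6 arrays. The array is thus high relative to the other arrays only. Gabra6 read 4.05 to 4.88 on the stroke arrays, and its mean over the 16 arrays exceeded that of 20.7% of genes. How much cerebellum each sample held was not tested. The counts of calls without this array are given below for all genes, the chromosomes, runs, lists and gene families.

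Of the 19938 genes, 77 (0.386%) differed between the genotypes at an adjusted p under 0.05 (limma, Benjamini-Hochberg over all genes, two-sided), 44 higher (0.221%) and 33 lower (0.166%) in the knockout-labelled brains. After quantile normalization the split turned, with 31 genes higher and 38 lower, and with each array centred on its median it was 37 higher and 47 lower. The median log2 difference over all genes was -0.005, and the median size among the 77 genes was 0.51. At least 2-fold differences were few, 5 genes higher and 2 lower. The 4 arrays of one genotype did not overlap the 4 of the other for 76 of the 77 genes, and for 1724 genes in all (8.65%), 897 of them higher (4.5%) and 827 lower (4.15%) in the knockout-labelled brains; the exception was the zinc finger gene Zfp944. An unadjusted p under 0.05 was reached by 3317 genes (16.6%). Without C57BL/6 array 1 the count was 41, 18 higher and 23 lower, of which 35 were among the 77; at least 2-fold differences were then 2 higher and 2 lower, and all 41 genes had arrays that did not overlap, among 2473 genes in all. Without knockout-labelled array 4 the count was 33, of which 27 were among the 77. Left out in turn, the remaining naive arrays gave 138 calls without knockout-labelled array 1, 27 without array 2 and 28 without array 3, and 90, 23 and 29 without C57BL/6 arrays 2, 3 and 4. In each of these fits and the 8 fits that left out a stroke array, 19 genes passed: Tnf, Catspere2, 1700048O20Rik, Lpl, Glo1, Mir377, Rgcc, Abhd1, Zfp983, Marchf11, A930017M01Rik and Mmut were higher, and Cthrc1, Nnt, Baalc, Bpnt1, Atraid, Lrrc73 and Mir211 were lower.

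**Figure D1:**
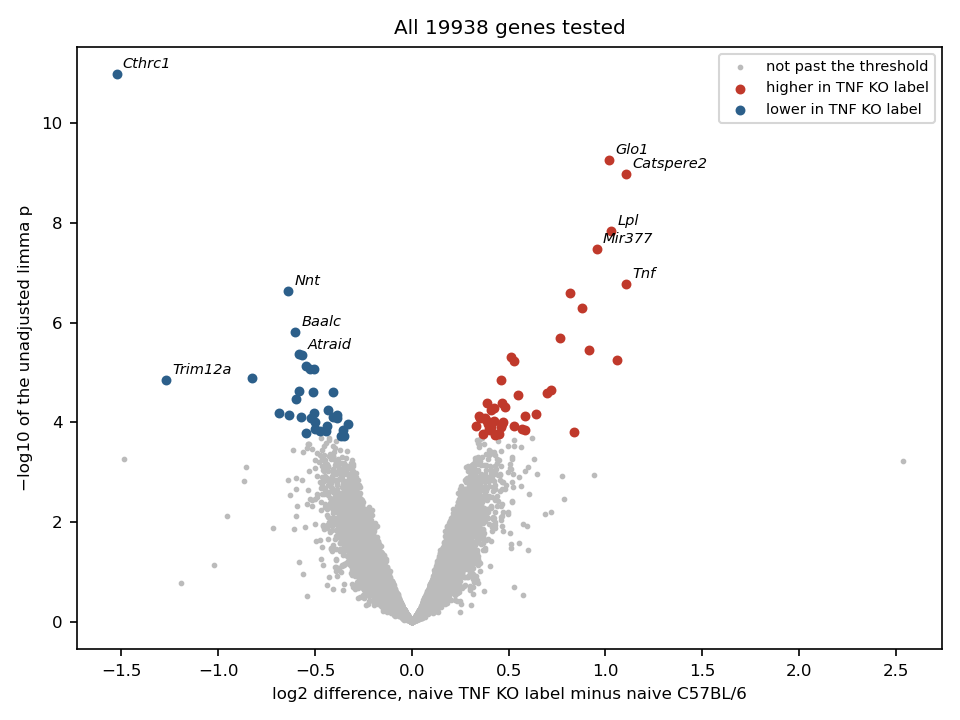
Log2 difference in naive brain (TNF knockout label minus C57BL/6, horizontal axis) against minus log10 of the unadjusted limma p (vertical axis), 1 point per gene for 19938 genes. The 44 coloured points on the right and the 33 on the left passed the adjusted threshold, with Cthrc1 (-1.53) farthest to the left among them and Tnf (1.11) and Catspere2 (1.11) farthest to the right.

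Tnf itself, the targeted gene, was higher in the arrays labelled knockout. It read 6.14, 6.46, 6.47 and 6.58 on the knockout-labelled arrays, against 5.01, 5.72, 5.08 and 5.41 on the C57BL/6 arrays. The lowest knockout-labelled array lay above the highest C57BL/6 array. The difference was 1.11 ± 0.14 (SE; log2 scale, 2.15-fold; limma adjusted p = 0.00056), and it was 1.24 in the stroke arrays (adjusted p = 0.0001). This direction is opposite to the lower Tnf signal that a knockout label could lead a reader to look for. Whether the probes lie outside the deleted part of the gene could not be checked, because neither the deletion nor the probe positions are given. Whether the labels hold, and why Tnf read higher, was not tested. The samples are therefore called knockout-labelled throughout, and each direction below rests on that label.

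The promoter of Tnf is printed because the gene's own signal is the check on the label. The 250 bases before the start of Tnf in RefSeq's GRCm38.p6 annotation (chr17:35202008-35202257, minus strand) hold 1 TATAAA, in capitals below, which begins 29 bases before the start. Either strand of 13% of the 27025 RefSeq mouse promoter windows holds this motif, which overlaps no CCAAT, the other motif searched and absent from this window.
Tnf: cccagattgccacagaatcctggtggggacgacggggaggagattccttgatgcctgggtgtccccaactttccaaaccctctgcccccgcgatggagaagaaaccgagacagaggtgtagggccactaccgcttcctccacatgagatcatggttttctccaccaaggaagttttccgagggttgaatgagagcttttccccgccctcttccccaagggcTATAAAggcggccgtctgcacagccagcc

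The remaining genes of the TNF pathway did not pass the threshold. Of 21 tested ligands, receptors, sheddases and adaptors, Tnf alone was called, and the median difference of the list was -0.04. The gene for the receptor TNFR1, Tnfrsf1a, averaged 6.54 ± 0.14 in knockout-labelled and 6.60 ± 0.22 in C57BL/6 brains (SD, n = 4 each). The gene for TNFR2, Tnfrsf1b, averaged 5.50 ± 0.05 in knockout-labelled and 5.55 ± 0.10 in C57BL/6 brains (SD, n = 4 each). The related ligands Lta and Ltb, which lie on either side of Tnf, differed by -0.08 and -0.04. The next smallest p in the list belonged to Cflar, an inhibitor of caspase-8 (difference 0.25, adjusted p = 0.19), and to Adam17 (0.22, adjusted p = 0.21). Downstream, 0 of 16 NF-κB subunits, inhibitors and feedback genes and 0 of 16 TNF-inducible target genes were called, against 0.386% of all genes. Of these, 2 and 4 had an unadjusted p under 0.05, against 16.6% of all genes. In lists of 16 genes these counts lie near the shares of all genes. Nfkbia, the inhibitor that NF-κB itself induces, differed by -0.32 (adjusted p = 0.22), and the adhesion molecule gene Vcam1 by 0.25 (adjusted p = 0.27).

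**Figure D2:**
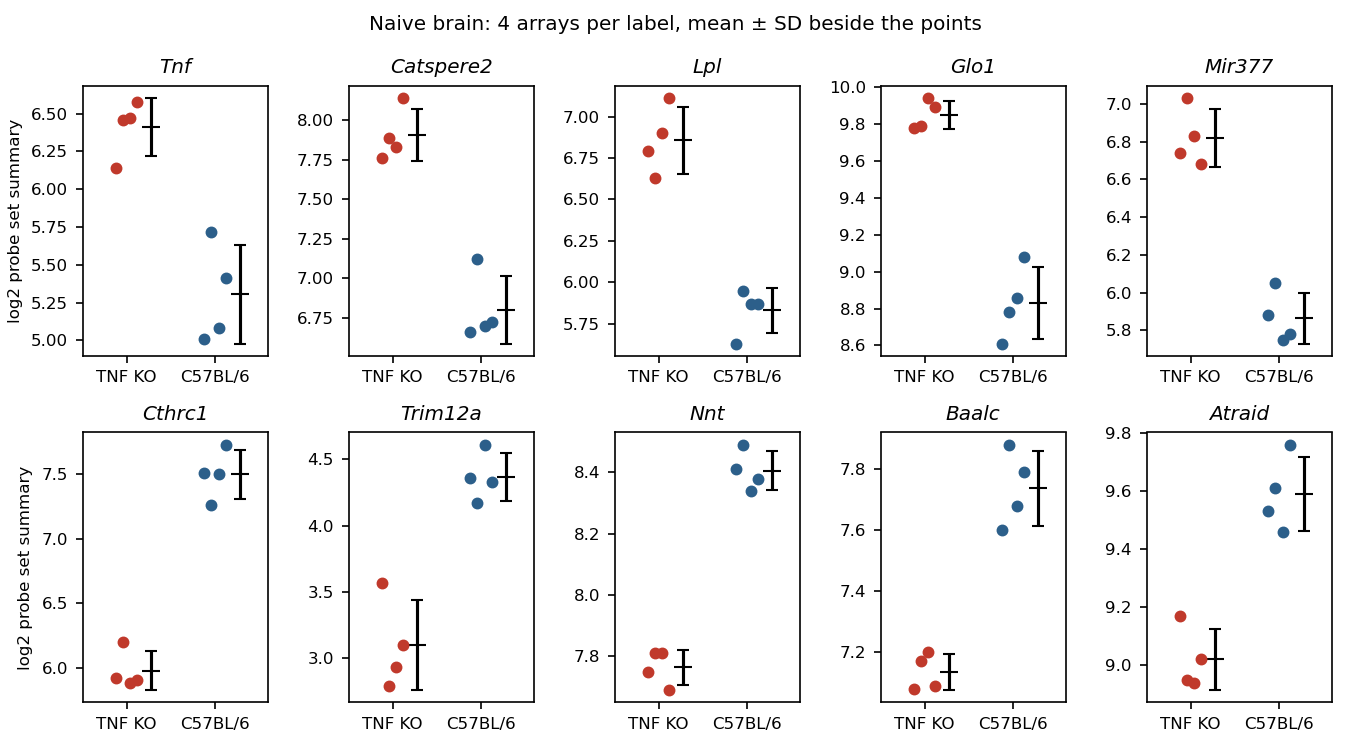
Log2 probe set summaries of 10 genes (vertical axes, a separate range for each gene) on the 4 naive arrays of each label, TNF knockout at left and C57BL/6 at right, with the mean ± SD beside the points. In each of the 10 panels the 4 arrays of the knockout label lie wholly above (top row) or wholly below (bottom row) the 4 C57BL/6 arrays.

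Among metabolic enzymes, Glo1 and Lpl were at least 2-fold higher in the knockout-labelled brains and Nnt was lower. Glo1, glyoxalase 1, which detoxifies methylglyoxal, read 9.78, 9.79, 9.94 and 9.89 on the knockout-labelled arrays, against 8.61, 8.78, 8.86 and 9.08 on the C57BL/6 arrays, a difference of 1.02 ± 0.09 (SE, limma adjusted p = 5.6e-06). Its second probe set gave 1.03. Lpl, lipoprotein lipase, which releases fatty acids from lipoprotein triglyceride, read 6.79, 6.63, 6.90 and 7.11 on the knockout-labelled arrays, against 5.63, 5.95, 5.87 and 5.87 on the C57BL/6 arrays, a difference of 1.03 ± 0.11 (SE, adjusted p = 7.3e-05). For both genes the genotypes were separated by more than the range within either of them. Nnt, the mitochondrial transhydrogenase that makes NADPH, read 7.75, 7.81, 7.81 and 7.69 on the knockout-labelled arrays, against 8.41, 8.49, 8.34 and 8.38 on the C57BL/6 arrays, a difference of -0.64 ± 0.08 (SE, adjusted p = 0.00063). Here all 4 knockout-labelled arrays were the lower ones. Glo1 and Nnt are known to vary between laboratory mouse strains, Glo1 in copy number and Nnt through a deletion carried by C57BL/6J.

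Several other enzymes were called. Abhd1, an α/β-hydrolase-fold protein, read 6.78, 7.05, 7.46 and 7.19 on the knockout-labelled arrays, against 6.12, 6.12, 6.21 and 6.52 on the C57BL/6 arrays, which did not overlap (0.88 ± 0.12, SE, limma adjusted p = 0.0012). Mmut, the mitochondrial methylmalonyl-CoA mutase, rose by 0.51 (adjusted p = 0.0065), and Tfb1m, which methylates mitochondrial ribosomal RNA, by 0.58 (adjusted p = 0.034). Adat2, the catalytic subunit of a tRNA deaminase, rose by 0.70 (adjusted p = 0.018). Bpnt1, a lithium-sensitive nucleotidase of sulphur metabolism, fell by 0.59 (adjusted p = 0.0064), Cpq, a secreted carboxypeptidase, by 0.64 (adjusted p = 0.034), and Gamt, the last enzyme of creatine synthesis, by 0.50 (adjusted p = 0.038). With each array left out in turn, Bpnt1 and Mmut were called in all 16 fits, Adat2 in 12, Cpq and Tfb1m in 10 and Gamt in 9. Leaving out a stroke array does not alter the naive difference itself. Of the 8 fits that left out a naive array, Adat2 was called in 4 and Cpq, Tfb1m and Gamt in 2 each.

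The secreted and membrane proteins moved in both directions. Cthrc1, a secreted glycoprotein with a collagen-like repeat, had the largest decrease and the smallest p of all 19938 genes. It read 5.92, 6.20, 5.88 and 5.90 on the knockout-labelled arrays, against 7.51, 7.26, 7.5 and 7.73 on the C57BL/6 arrays, a difference of -1.53 ± 0.11 (SE, 2.88-fold lower, limma adjusted p = 2.1e-07). More than 1 log2 unit lay between the highest knockout-labelled and the lowest C57BL/6 array. Baalc, a membrane-bound protein of neural tissue, read 7.08, 7.17, 7.20 and 7.09 on the knockout-labelled arrays, against 7.6, 7.88, 7.68 and 7.79 on the C57BL/6 arrays (-0.60 ± 0.09, SE, adjusted p = 0.0032). The Wnt receptor gene Fzd6 fell by 0.51 (adjusted p = 0.034, called in 10 of the 16 fits). Fzd6 was called in 2 of the 8 fits that left out a naive array. Atraid, induced by retinoic acid, read 9.17, 8.95, 8.94 and 9.02 on the knockout-labelled arrays, against 9.53, 9.61, 9.46 and 9.76 on the C57BL/6 arrays (-0.57 ± 0.09, SE, adjusted p = 0.0064). Neither Baalc nor Atraid overlapped between the genotypes.

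Higher in the knockout-labelled brains were Kcnj10, the potassium channel Kir4.1 of astrocytes (0.64, limma adjusted p = 0.034), and Mr1, which presents vitamin B metabolites to T cells (0.59, adjusted p = 0.043). They were called in 10 and 5 of the 16 fits with an array left out, and in 2 and 1 of the 8 that left out a naive array. Catspere2, related to a subunit of the sperm calcium channel, read 7.76, 7.89, 7.83 and 8.14 on the knockout-labelled arrays, against 6.66, 7.12, 6.70 and 6.72 on the C57BL/6 arrays, with no overlap. Its difference of 1.11 ± 0.10 (SE, adjusted p = 6.9e-06) equalled that of Tnf at this rounding.

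Genes with roles in transcription, the cell cycle and transport made up part of the rest. Rgcc, a regulator of the cell cycle, read 7.48, 8.13, 7.80 and 7.84 on the knockout-labelled arrays, against 6.85, 6.84, 6.91 and 7.0 on the C57BL/6 arrays (0.91 ± 0.14, SE, limma adjusted p = 0.0058). The knockout-labelled arrays were all higher but varied more. Pkmyt1, the kinase that restrains CDK1, fell by 0.58 (adjusted p = 0.034, called in 9 of 16 fits), and Trappc2l, of a vesicle-tethering complex, rose by 0.84 with an SD of 0.44 in the knockout-labelled brains (adjusted p = 0.045, called in 3 of 16). Trim12a, of the Trim5 group of antiviral factors, read 3.57, 2.79, 2.93 and 3.10 on the knockout-labelled arrays, against 4.36, 4.17, 4.61 and 4.33 on the C57BL/6 arrays (-1.27 ± 0.22, SE, adjusted p = 0.012, called in 13 of 16). Its mean over the 16 arrays exceeded that of 11.5% of genes, so it was read near the dim end of the arrays. Of the 8 fits that left out a naive array, Trim12a was called in 5 and Pkmyt1 and Trappc2l in 1 each. Marchf11, a membrane-bound ubiquitin ligase, rose by 0.77 (adjusted p = 0.0038), although its second probe set differed by -0.00.

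Zinc finger genes held a few of the increases. Of 347 tested genes named Zfp, 5 were higher (1.44%, against 0.221% of all genes) and 0 lower (against 0.166% of all genes), and their median difference was 0.09, against -0.005 for all genes. Of the 5, 3 (Zfp983, Zfp760 and Zfp944) lie close together on chromosome 17, which holds 40 of the 347, so the share rests largely on 1 place. Zfp983 read 6.84, 6.99, 6.98 and 7.08 on the knockout-labelled arrays, against 6.22, 6.41, 5.91 and 6.09 on the C57BL/6 arrays, without overlap (0.82 ± 0.11, SE, limma adjusted p = 0.00063). Zfp868 rose by 0.72 (adjusted p = 0.018), Zfp760 by 0.53 (adjusted p = 0.040), Zfp418 by 0.46 (adjusted p = 0.041) and Zfp944 by 0.43 (adjusted p = 0.047). These 4 were called in 12, 8, 5 and 3 of the 16 fits, and in 4, 2, 0 and 2 of the 8 that left out a naive array. Without C57BL/6 array 1 the calls were Zfp983, Zfp868 and Zfp944. Zinc finger genes of this kind are often near-identical copies, and probes shared between them could not be examined.

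Of 291 microRNA genes tested, 2 were called (0.687%, against 0.386% of all genes), Mir377 higher and Mir211 lower, and both were called without C57BL/6 array 1 too. Both had probe sets of their own, which read labelled RNA from the locus and do not separate the hairpin from the mature arms. The mature arms are printed, from RefSeq's GRCm38.p6 annotation, with the seed (bases 2 to 8, which pair with targets) in capitals. Mir377 lies on the plus strand of chromosome 12, its 5p arm at chr12:109740515-109740536 and its 3p arm at chr12:109740553-109740574. Mir211 lies on the plus strand of chromosome 7, its 5p arm at chr7:64205831-64205852 and its 3p arm at chr7:64205868-64205888. No seed was shared among the 4 arms.
mmu-miR-377-5p: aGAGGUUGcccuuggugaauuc
mmu-miR-377-3p: aUCACACAaaggcaacuuuugu
mmu-miR-211-5p: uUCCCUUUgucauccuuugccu
mmu-miR-211-3p: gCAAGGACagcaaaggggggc

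Mir377 read 6.74, 7.03, 6.83 and 6.68 on the knockout-labelled arrays, against 5.88, 6.05, 5.75 and 5.78 on the C57BL/6 arrays (0.96 ± 0.11, SE, limma adjusted p = 0.00014). All 4 knockout-labelled arrays were higher. It belongs to the large imprinted microRNA cluster that follows Meg3 and Rian, long noncoding RNAs expressed from the maternal chromosome. Of the 41 other microRNA genes within 50 tested genes of it, 0 were called; 35 differences were positive and 6 negative, with a median of 0.26 and a range of -0.23 to 0.69, against a median of -0.04 for all microRNA genes tested. In 7 of the 41 the knockout-labelled arrays lay wholly above the C57BL/6 arrays (4.5% of all genes did so). The 41 are neighbours picked by their closeness to a called gene, so they do not count as independent members. The counts of signs and of overlap in the 41 were not made without C57BL/6 array 1. Rian differed by 0.65, with an SD of 0.06 in knockout-labelled and 0.46 in C57BL/6 brains (adjusted p = 0.088), and Meg3 by 0.22 (adjusted p = 0.27). Mir211 read 5.73, 5.45, 5.42 and 5.39 on the knockout-labelled arrays, against 5.99, 5.90, 6.05 and 6.15 on the C57BL/6 arrays, again without overlap (-0.53 ± 0.09, SE, adjusted p = 0.0085). Trpm1, the ion channel gene whose intron holds Mir211, differed by -0.14 (adjusted p = 0.55).

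The called genes were not spread evenly over the chromosomes. Chromosome 15 held 11 of them among 752 tested genes (1.46%) and chromosome 17 held 12 among 940 (1.28%), against 54 among the 18224 tested genes of all other chromosomes (0.296%). Without C57BL/6 array 1 these counts were 8 on chromosome 15, 9 on chromosome 17 and 24 elsewhere. Chromosomes 16 and 18 held 0 among 649 and 471. Gene order was taken from RefSeq's GRCm38.p6 annotation, which placed 19916 of the tested genes, and a run was defined as at least 3 called genes, each within 10 tested genes of the next. There were 3 runs, and each of them lay on chromosome 15 or 17. At the same spacing, groups of only 2 called genes lay on other chromosomes too. They were Bpnt1 and Lyplal1 (chromosome 1), Abhd1 and Atraid (5), Lpl and Zfp868 (8), Stx11 and Adat2 (10), and Pkmyt1 and Prss41 (17).

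The longest run, on chromosome 15, was Ankrd46, Rrm2b, Baalc, Fzd6 and Cthrc1, 5 of the 18 tested genes it spanned. Its members did not move one way: Ankrd46 (0.46, limma adjusted p = 0.012) and Rrm2b, the p53-inducible subunit of ribonucleotide reductase (0.55, adjusted p = 0.020), were higher, and Baalc, Fzd6 and Cthrc1 were lower. The 13 uncalled genes between them differed by -0.42 to 0.20. A shorter run on the same chromosome held Cpq and Laptm4b, a lysosomal membrane protein (-0.33, adjusted p = 0.039), both lower, and the matrix gene Matn2, higher (0.41, adjusted p = 0.043), within 6 tested genes. The run on chromosome 17 was Zfp983, Zfp760 and Zfp944, within 8 tested genes and all higher. Of the 11 members of the runs, Cthrc1, Baalc and Zfp983 were called in all 16 of those fits, Ankrd46 in 13, Rrm2b in 11, and the other 6 in 3 to 10. In the 8 fits that left out a naive array, Ankrd46 was called in 5, Rrm2b in 3 and the other 6 in 1 or 2. Without C57BL/6 array 1, 7 of the 11 were called: Ankrd46, Baalc, Fzd6, Cthrc1, Cpq, Zfp983 and Zfp944.

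Tnf lies on chromosome 17 as well, in the class III part of the major histocompatibility complex, but it stood alone there. Of the 20 tested genes on each side of it, 0 were called, and their differences ran from -0.37 to 0.15 with a median of -0.11. The list of 46 class III genes likewise had 0 calls (0.386% of all genes were called) and a median of -0.09, with 11 positive and 35 negative differences. Glo1 lies 151 tested genes before Tnf and Mmut 116 after it in this order.

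**Figure D3:**
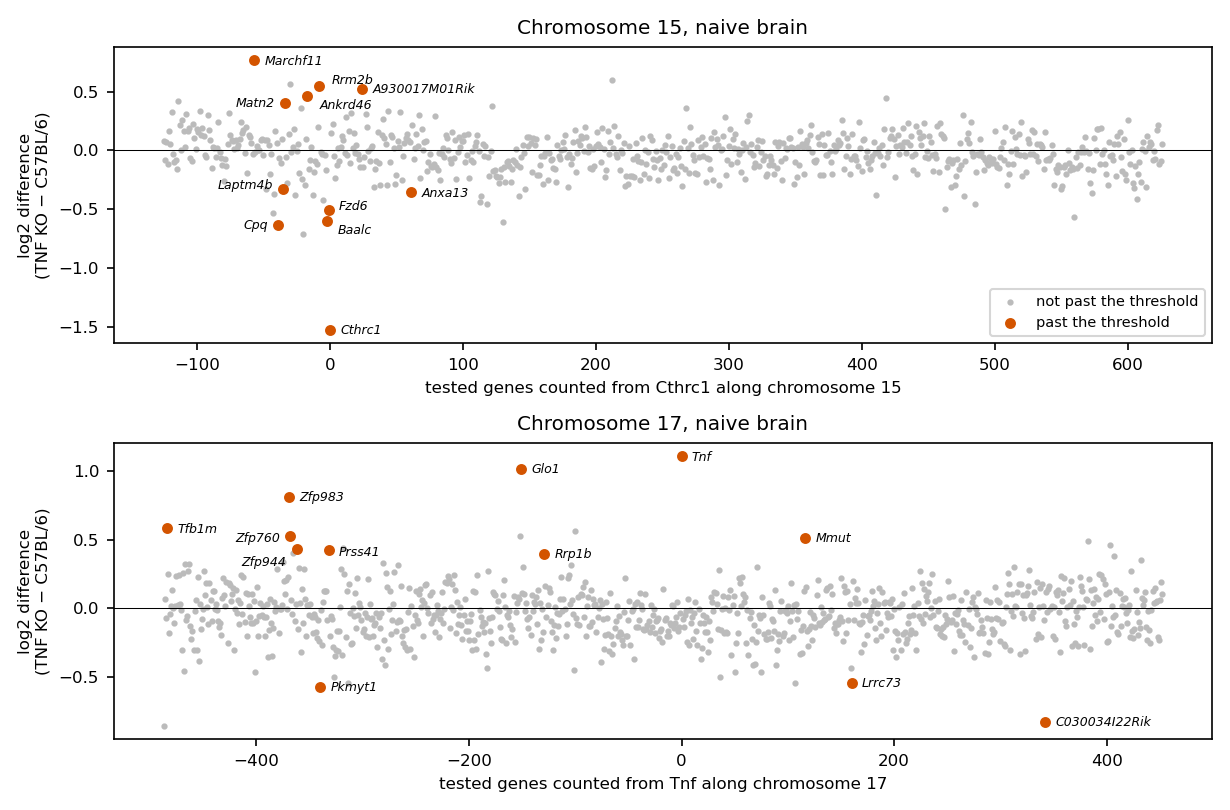
Log2 difference (TNF knockout label minus C57BL/6, vertical axes) of each tested gene on chromosomes 15 (top) and 17 (bottom), in RefSeq order counted in tested genes from Cthrc1 and from Tnf (horizontal axes). Orange points passed the threshold, 11 on chromosome 15 and 12 on chromosome 17; the 11 lie within the first part of chromosome 15, and the 20 genes on either side of Tnf hold no other orange point.

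Genes of inflammation were examined as lists, each read against the 0.386% of all genes called. Chemokines (26 tested), interleukins and their receptors (22), interferon-stimulated genes (24), complement (19) and antigen presentation (16) had 0 calls each. An unadjusted p under 0.05 was reached by 0, 2, 4, 3 and 4 members, against 16.6% of all genes. Their medians were -0.10, 0.03, -0.07, -0.07 and -0.17. The interferon-induced genes Oasl2, an antiviral nucleotide-binding protein, and Irf7, a transcription factor of the interferon response, differed by -0.48 (limma adjusted p = 0.081) and -0.46 (adjusted p = 0.099). Psmb9, a subunit of the immunoproteasome, differed by -0.33 (adjusted p = 0.091).

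**Figure D4:**
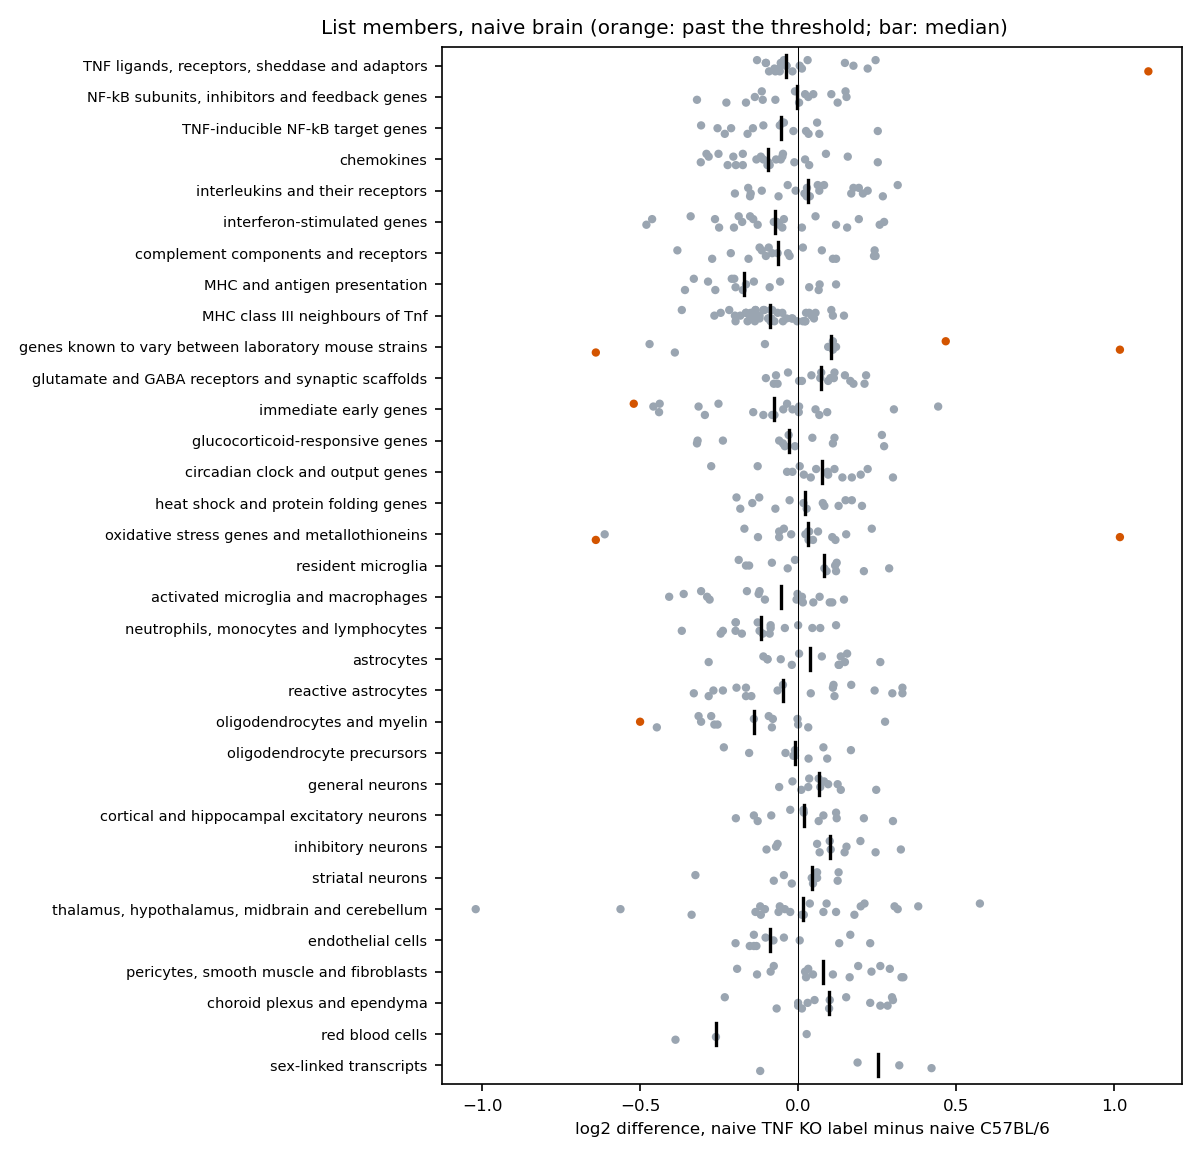
Log2 difference in naive brain (TNF knockout label minus C57BL/6, horizontal axis) of the tested members of 33 lists (rows, 16 of genes and 17 of cell type markers), with the median as a bar. Orange points passed the threshold; they stand in 5 of the 33 lists, and 28 lists have none.

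Calls fell in 4 other lists, and each count below is read against the 0.386% of all genes called. Of 10 genes known to vary between laboratory mouse strains, 2 were higher, Glo1 and Entpd4, a Golgi nucleotidase (0.47, limma adjusted p = 0.039), and 1 was lower, Nnt; Wdfy1 differed by -0.47 (adjusted p = 0.0515). Entpd4 was called in 7 of the 16 fits, and in 1 of the 8 that left out a naive array. The lists were chosen with earlier results of these data known, so calls in them are no independent evidence that such genes differed more often. Glo1 and Nnt also made up the 2 calls among 19 oxidative stress genes, whose next smallest p belonged to the metallothionein Mt2 (-0.61, adjusted p = 0.068). Of 21 immediate early genes, 1 was called: Junb, an AP-1 subunit, read 5.81, 5.42, 5.64 and 5.57 on the knockout-labelled arrays, against 6.07, 6.09, 6.14 and 6.22 on the C57BL/6 arrays (-0.52 ± 0.11, SE, adjusted p = 0.034, called in 10 of 16 fits). Junb was called in 2 of the 8 fits that left out a naive array. Jun, another AP-1 subunit, differed the other way by 0.44 (adjusted p = 0.054). Synaptic receptors and scaffolds had 0 calls among 19, and the AMPA receptor gene Gria1, whose product TNF is known to move to the cell surface, differed by 0.18 (adjusted p = 0.37). The glucocorticoid, circadian and heat shock lists had 0 calls among 13, 16 and 14 genes. Without C57BL/6 array 1, the list members called were Tnf, Glo1, Nnt, Trf and Mt2.

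Cell type markers gave 1 call among 227 tested genes of 17 lists (0.441%, against 0.386% of all genes), a share near that of all genes. The call was Trf, transferrin, which oligodendrocytes make in the brain. It was called in 2 of the 8 fits that left out a naive array. Trf read 10.60, 10.66, 10.26 and 10.59 on the knockout-labelled arrays, against 10.83, 11.20, 10.93 and 11.15 on the C57BL/6 arrays (-0.50 ± 0.11, SE, limma adjusted p = 0.043, called in 6 of 16 fits). In this list of 15 oligodendrocyte and myelin genes 12 differences were negative, 2 positive and 1 was 0, with a median of -0.14. An unadjusted limma p under 0.05 was reached by 6 of the 15, against 16.6% of all genes. In 3 of the 15 the knockout-labelled arrays lay wholly below the C57BL/6 arrays (4.15% of all genes did so), and in 0 wholly above. The members other than Trf were uncalled: Cldn11 differed by -0.45 (limma adjusted p = 0.079), Mag by -0.31 (adjusted p = 0.14), Cnp by -0.28 (adjusted p = 0.10) and Mbp by -0.08 (adjusted p = 0.61). Resident microglia, the main source of TNF, had 0 calls among 13 markers and a median of 0.08, with 7 positive and 6 negative differences. P2ry13 and Trem2 were the 2 members with an unadjusted p under 0.05, at 0.29 and -0.19 (limma adjusted p = 0.29 and 0.25). Blood-borne leukocytes had 0 of 18, astrocytes 0 of 14, general neurons 0 of 12 and endothelial cells 0 of 12. Syt1, the synaptic calcium sensor and a general neuron marker, averaged 12.32 ± 0.05 in knockout-labelled and 12.22 ± 0.05 in C57BL/6 brains (SD, n = 4 each), and its mean over the 16 arrays exceeded that of 99.8% of genes. Markers of choroid plexus and ependyma, whose amount depends on dissection, had 11 positive differences, 2 negative and 2 of 0 among 15, with 0 calls and a median of 0.10.

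The same genotype comparison was made in the stroke arrays, which share no array with the naive ones but do share the name prefixes. With each set of 8 arrays fitted alone, 51 genes were called in naive brain (0.256%) and 46 after pMCAO (0.231%), and 17 were in both sets, 33.3% of the naive and 37.0% of the stroke calls. Of the 51, 48 had the same sign after pMCAO (94.1%), against 58.6% of all genes. In the single model over 16 arrays 25 of the 77 were called in both. The test of whether the genotype difference itself changed with pMCAO called 0 genes (limma). An unadjusted p under 0.05 was reached by 1480 of the 19938 genes, 35 of them among the 77. The 77 were chosen by the naive difference, which enters this test, so the 35 are no independent evidence of a change. The median SE of the change was 0.141, against 0.0994 for the naive difference. In simulated data with 200 changed genes, the test recovered 28.4% of changes of 0.5 log2 units and 95.5% of changes of 1. The 0 calls therefore do not show that the genotype differences were the same in both conditions. Cthrc1 differed by -1.45 after pMCAO, Catspere2 by 1.47, Glo1 by 0.95, Lpl by 0.83, Mir377 by 0.75 and Nnt by -0.60, each called there too.

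A few genes called in naive brain had other differences after pMCAO, though no change passed the threshold. They too were chosen by their naive difference, so the shifts are no independent evidence of a change. Adat2 averaged 6.37 ± 0.15 in knockout-labelled and 6.68 ± 0.12 in C57BL/6 stroke brains (SD, n = 4 each), a difference of -0.32 against 0.70 in naive brain (limma adjusted p = 0.11 for the change). Junb differed by 0.03 and Tfb1m by 0.02 after pMCAO, with adjusted p = 0.43 and 0.51 for the change. Crebl2, Krt32, Sult1b1 and Zfp418 were the other genes whose sign turned, with differences of -0.07, 0.08, 0.07 and -0.02 after pMCAO. Of the genes called in both conditions, Cpq had -1.14 after pMCAO and -0.64 in naive brain, and Myl4, a myosin light chain, -0.93 and -0.60, with adjusted p = 0.58 and 0.67 for the change.

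**Figure D5:**
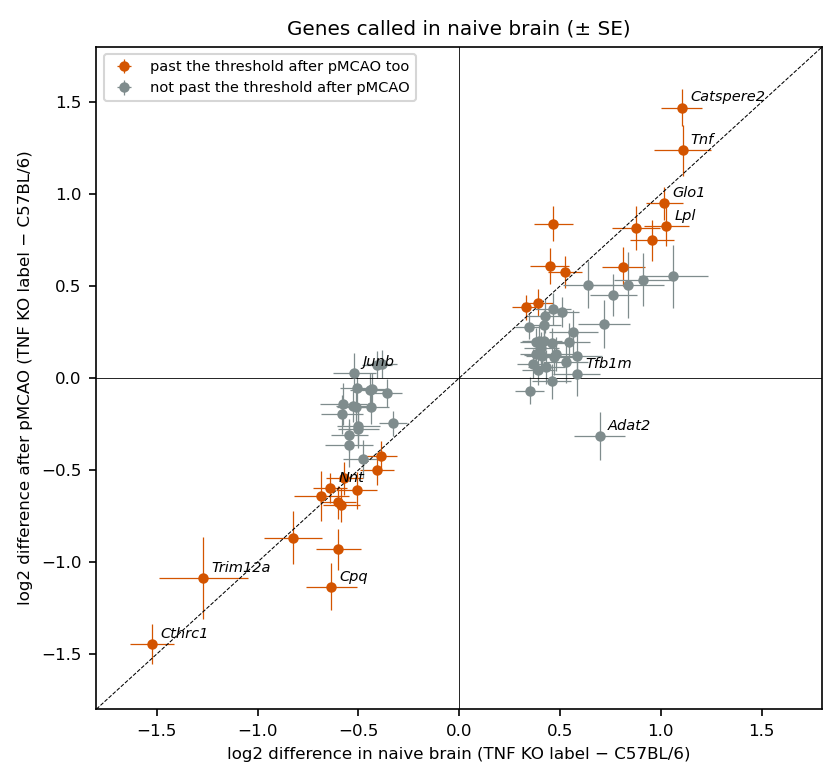
Log2 difference between the TNF knockout label and C57BL/6 (± SE) for the 77 genes called in naive brain, in naive brain (horizontal axis) and after pMCAO (vertical axis), with the line of equal differences dashed. The 25 orange genes were called after pMCAO too; 71 of the 77 genes have the same sign on both axes, and Adat2 (0.70 in naive brain, -0.32 after pMCAO) lies farthest into the opposite quadrant.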

How the data were processed

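Whole brain RNA of 16 samples was hybridised to 1 array each, 4 for each genotype and surgery. The values used are the deposited log2 summaries of 28944 probe sets per array; GCOS, GCRMA, Partek and RMA are named in the submitters' processing notes, without version or step, and the genome build was not given in the sources used here. Probe sets naming 1 gene symbol (21789) were kept, those with several (1621) or none (5534) were left out, and the highest mean over the 16 arrays chose between probe sets of a gene. Signal over background was not available, and the number of arrays limits the precision: the median SE of a difference was 0.0994.

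Groups came from the labels. The 4 group means were estimated together with limma 3.58.1 (R 4.3.3), with 12 residual and 7.52 prior degrees of freedom; its two-sided p-values were adjusted by the Benjamini-Hochberg method over 19938 genes, with a threshold of 0.05. The fit was tested on simulated data. The alternatives were normalization, centring, filter, probe set choice, prior, weights, threshold, fewer arrays, and blocks for replicate number and name prefix. Named genes were Tnf, the 15 largest increases and the 15 largest decreases among called genes whose groups did not overlap, up to 4 members of each list by p with each called member, and genes in runs; others were chosen after their values were seen. The comparison and lists were chosen with earlier results of these data known. Motifs were searched on both strands. Sequences came from RefSeq (GRCm38.p6). Same-numbered naive arrays of the 2 genotypes deviated together with r of 0.0457 to 0.131, and arrays of different number with r of -0.115 to 0.0784. Replicate numbers were not taken as pairs, because not all same-numbered r were over 0.1. Whether same-numbered arrays shared a source of spread was not tested. The count of calls with the replicate number as a block is given below.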

Additional observations from a re-analysis of the deposited data

Results flagged for a closer look

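In 246 groups of 4 naive arrays (the genes named in the text or by the rule, each genotype apart), 13 had 1 array far from the other 3 by Dixon's criterion (a gap over 0.829 of the group's range), which chance gives in about 1 of 20 groups. Among called genes, Cthrc1 read 6.20 on knockout-labelled array 2 against 5.88 to 5.92 on the other 3, and Catspere2 read 7.12 on C57BL/6 array 2 against 6.66 to 6.72; both kept their calls without that array.

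Gdpd3, a lysophospholipase D that was chosen after its values were seen, had the largest difference of all genes (2.54) and was not called (limma adjusted p = 0.079). It read 4.50 on knockout-labelled array 1 and 7.5 to 7.87 on the other 3, against 4.02 to 4.72 on the C57BL/6 arrays, so array 1 lay among the C57BL/6 arrays. The stroke arrays split likewise. Gdpd3 read 4.43 on knockout-labelled stroke array 1 and 7.1 to 7.61 on the other 3, against 4.16 to 4.7 on the C57BL/6 stroke arrays. The cerebellar genes Gabra6 and Cbln3, also chosen after their values were seen, read 7.99 and 7.45 on C57BL/6 array 1, against 4.0 to 4.48 and 5.14 to 5.30 on the other 3.

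The other flagged arrays concern uncalled genes. On knockout-labelled arrays, Bcl3 read 5.67 on array 3, Homer1 9.24 and Clock 8.79 on array 4. On C57BL/6 arrays, Dnajb1 read 7.63 on array 1, S1pr3 5.68 and Gad2 10.05 on array 2, C1ra 4.28 on array 3 and Egfl8 6.82 on array 4. When every probe set was tested, 74 probe sets with no or several gene symbols were called, 43 higher and 31 lower in the knockout-labelled brains, with differences from -1.55 to 1.4.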

How the results depend on the processing

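The count of 77 genes became 185 with the dimmest 33.3% of genes left out (fewer genes tested), 117 with a trended prior, 51 with only the 8 naive arrays, 167 with every probe set tested, 20 at a threshold of 0.01 and 24 with a 1.5-fold minimum. Quantile normalization gave 69, median centring 84, the mean of probe sets 80, a robust prior 75, array weights 109 and the name prefix as a random block 52. Leaving out 1 array gave 23 to 138 calls. The cause of these shifts was not tested. With the replicate number as a block, 141 genes were called and the change of the genotype difference with pMCAO called 1 gene, against 0 without the block. That test called 0 to 3 genes when 1 array was left out: 3 without C57BL/6 naive array 2, 2 without knockout-labelled naive array 4 or stroke array 2, and 1 without knockout-labelled stroke array 1. Of the 12 genes called in the naive arrays alone at 0.01, 9 (75.0%) were called after pMCAO, and of the 51 called at 0.05, 17 (33.3%). Tnf kept its direction and its call in each fit, with differences of 1.01 to 1.25, and no named gene reversed in any alternative run.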
